A study of Mus musculus with 9 samples.

Results

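AP-1 is a family of transcription factors built as pairs of a Fos protein and a Jun protein, or of 2 Jun proteins, and 6 of its genes were followed here in mouse hippocampus: Fos, Fosb and Fosl2 of the Fos group and Jun, Junb and Jund of the Jun group. The members were chosen by gene identity, as the entries of the deposited table whose Ensembl identifier belongs to 1 of these genes. Earlier results of these data were known when the 6 were chosen. All 6 were present among 14779 genes, and 6 of 6 passed the filter on low counts that left 14696 genes for testing.

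The subunits join through leucine zippers and bind DNA at the AP-1 site or at cyclic AMP response elements, depending on the pair. In neurons, Fos, Fosb, Jun and Junb are immediate-early genes whose transcription is started within minutes by calcium entry and kinase signalling, whereas Jund is a steadily expressed member. Fosb also gives the truncated protein ΔFosB, which builds up in the brain under repeated exposure to drugs of abuse, and a count per gene cannot separate ΔFosB from full-length FosB. Fosl2 encodes Fra-2, a Fos protein without the strong activation domain of Fos and FosB.

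Polyadenylated RNA of the hippocampus was sequenced from 3 groups of mice with 3 libraries each. CIE+IL17 Ab mice had chronic intermittent ethanol exposure and received an antibody against interleukin 17A, a cytokine of T cells and other lymphocytes. CIE+IgG mice had the same ethanol exposure with an IgG control antibody, marked "iso" in the labels, and Air+IgG mice were kept in air with that IgG, so every group received an immunoglobulin. The series gives 3 mice per group, and strain, age and sex are not described here.

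Library totals lay between 7372658 and 11894628 expected counts. Levels are given as CPM, counts scaled to each library's TMM-adjusted total, and a gene was called when its adjusted p from edgeR's quasi-likelihood test over all 14696 genes was under 0.05. Label numbers 37 to 39 mark 1 library of each group and 54 to 60 mark 2 of each group. What the numbers stand for is not given in the labels, and values within each range are given beside the results. Lars2, a gene outside the family, took 6.71% of the counts in CIE+IL17 Ab replicate 1 and 7.13% in Air+IgG replicate 2, and 0.0207% or less in the other libraries. Summed markers of thalamus and habenula lay between 710 and 1220 CPM in CIE+IL17 Ab, between 100.2 and 213 CPM in CIE+IgG, and between 80.3 and 98.8 CPM in Air+IgG, so the libraries labelled hippocampus differed by group in transcripts of a neighbouring region.

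The promoters of 4 members are printed because these 4 cover the immediate-early prototype Fos and the 3 subunits called lower in CIE+IL17 Ab against Air+IgG, Fosl2, Jun and Junb. All 6 subunits matched an entry of the promoter table. Each window is RefSeq's 250 bases before to 50 after the gene's start (GRCm38.p6), read 5′ to 3′ on the gene's strand. Capitals mark TGACG, the core of a cyclic AMP response element, or TGACNTCA, a looser form of the full site that allows any base in its middle. The windows are chr12:85473640-85473939 (+) for Fos, chr4:95052173-95052472 (-) for Jun, chr8:84978699-84978998 (-) for Junb and chr5:32136222-32136521 (+) for Fosl2. For Fosl2 the RefSeq start lies 671 bases downstream of the GENCODE start, so the whole window lies inside the gene as GENCODE places it. For Junb the RefSeq start lies 30 bases upstream of the GENCODE start. All distances are from the RefSeq start.
Fos: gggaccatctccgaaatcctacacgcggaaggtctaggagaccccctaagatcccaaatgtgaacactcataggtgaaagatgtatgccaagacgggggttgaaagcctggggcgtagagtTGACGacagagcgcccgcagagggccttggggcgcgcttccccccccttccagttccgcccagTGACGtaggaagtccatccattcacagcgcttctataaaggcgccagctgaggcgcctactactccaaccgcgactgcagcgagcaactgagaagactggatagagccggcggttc
Jun: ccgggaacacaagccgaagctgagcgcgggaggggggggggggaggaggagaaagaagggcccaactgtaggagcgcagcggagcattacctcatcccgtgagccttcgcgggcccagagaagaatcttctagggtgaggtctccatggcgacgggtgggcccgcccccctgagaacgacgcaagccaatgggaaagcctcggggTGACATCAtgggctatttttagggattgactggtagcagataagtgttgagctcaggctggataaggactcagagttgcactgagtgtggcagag
Junb: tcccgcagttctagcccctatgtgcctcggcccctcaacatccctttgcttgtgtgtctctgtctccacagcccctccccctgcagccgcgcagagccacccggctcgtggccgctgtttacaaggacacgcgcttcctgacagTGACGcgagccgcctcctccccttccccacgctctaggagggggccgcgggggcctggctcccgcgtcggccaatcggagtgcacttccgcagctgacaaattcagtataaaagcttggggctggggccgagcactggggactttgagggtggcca
Fosl2: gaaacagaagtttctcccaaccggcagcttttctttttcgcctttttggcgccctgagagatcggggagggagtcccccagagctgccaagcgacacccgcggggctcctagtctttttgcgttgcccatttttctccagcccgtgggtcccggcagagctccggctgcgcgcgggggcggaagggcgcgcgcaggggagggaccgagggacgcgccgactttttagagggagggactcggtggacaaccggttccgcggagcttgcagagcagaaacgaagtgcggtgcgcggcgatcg

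On either strand, the Fos window held TGACG at 129 to 125 and at 66 to 62 bases before the start, and TATAAA at 33 to 28 bases before it. The Junb window held TGACG at 106 to 102 bases and CCAAT at 36 to 32 bases before the start, and TATAAA at the RefSeq start itself. The Jun window held TGACATCA at 45 to 38 bases and CCAAT at 65 to 61 bases before the start. The Fosl2 window, which lies downstream of the GENCODE start, held none of the 6 motifs searched. These were the core TGACG, the looser form TGACNTCA, the AP-1 site loosely as TGANTCA, the TATA box as TATAAA, the motif CCAAT and the CArG box. Among 32851 mouse promoters of the same length, 20.8% held TGACG, 8.83% held TGACNTCA, 7.81% held TGANTCA, 13.6% held TATAAA, 37.4% held CCAAT and 1.63% held a CArG box. TGACG is part of a TGACNTCA match when the middle base is G, so those matches can overlap. These matches describe letters in the windows only.

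Per kilobase of the union of exons, Jund was the most abundant subunit transcript in 9 of 9 libraries and Fosb the least abundant in 9 of 9. With the longest transcript as gene length Fosb stayed last in 9 of 9, but Jund led in 7 and Junb in the other 2, which were CIE+IgG replicate 2 (Junb 24.85, Jund 24.70 CPM per kb) and Air+IgG replicate 2 (Junb 33.2, Jund 27.0 CPM per kb). Levels per kilobase of exon for Jund averaged 25.3 ± 2.34 CPM per kb in CIE+IL17 Ab, 24.3 ± 1.62 CPM per kb in CIE+IgG and 28.5 ± 2.41 CPM per kb in Air+IgG (SD, n = 3 each). Fosb averaged 0.314 ± 0.0792 CPM per kb in CIE+IL17 Ab, 0.522 ± 0.0972 CPM per kb in CIE+IgG and 0.596 ± 0.133 CPM per kb in Air+IgG. Junb and Jun stood between them, at 20.2 ± 5.28 and 18.5 ± 5.14 CPM per kb in Air+IgG, and these neighbours in the order did not differ beyond their spread. Fos at 7.94 ± 1.01 CPM per kb and Fosl2 at 4.70 ± 0.392 CPM per kb followed in Air+IgG.

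**Figure D1:**
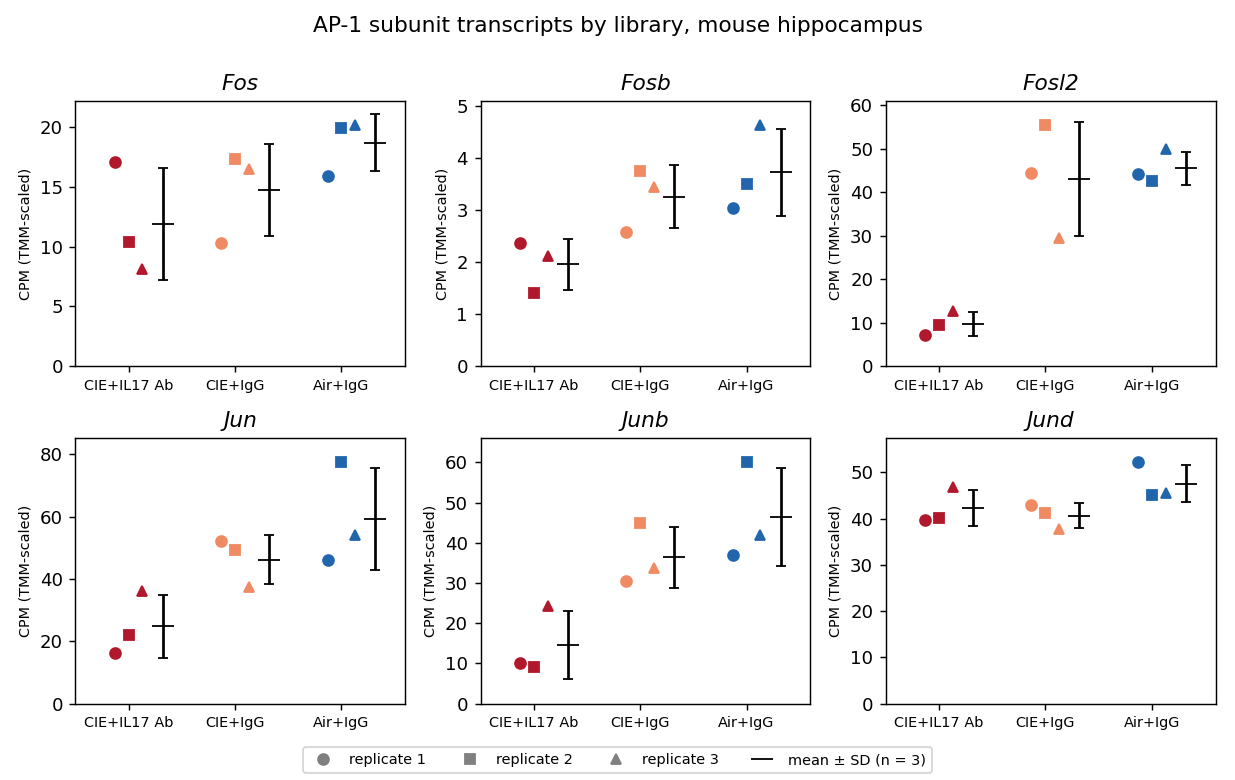
TMM-scaled CPM (linear axes from 0) of the 6 AP-1 subunits in each library, with CIE+IL17 Ab, CIE+IgG and Air+IgG from left to right. Symbols mark replicates, and black bars give mean ± SD of 3 libraries. Fosl2 stood at 7.09 to 12.7 CPM in CIE+IL17 Ab, below every other library, whereas Jund stayed between 37.7 and 52.2 CPM in all 9.

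Fosl2 showed the widest range of the family. Fosl2 (ENSMUSG00000029135, chr5:32135801-32157842, +) had 7.09, 9.47 and 12.7 CPM in CIE+IL17 Ab, against 44.4, 55.5 and 29.4 CPM in CIE+IgG and against 44.1, 42.6 and 49.8 CPM in Air+IgG. The 3 antibody libraries lay below all 6 IgG libraries, and CIE+IgG replicate 3 was the lowest of those 6. These levels rest on 51 to 121 counts per library in CIE+IL17 Ab, 315 to 474 in CIE+IgG and 317 to 526 in Air+IgG.

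Jun, the founding member of the Jun group and a target of the JNK kinases, lies at chr4:95049034-95052222 (-). Jun had 16.4, 22.1 and 36.1 CPM in CIE+IL17 Ab, 52.1, 49.2 and 37.3 CPM in CIE+IgG, and 45.9, 77.5 and 53.98 CPM in Air+IgG. The antibody libraries were again the 3 lowest, but CIE+IL17 Ab replicate 3 came close to CIE+IgG replicate 3.

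Junb, an inducible subunit that activates transcription less strongly than Jun at a single AP-1 site, lies at chr8:84974484-84978718 (-). Junb had 10.1, 9.16 and 24.4 CPM in CIE+IL17 Ab, 30.6, 44.9 and 33.7 CPM in CIE+IgG, and 37.1, 60.1 and 42.0 CPM in Air+IgG. No antibody library reached an IgG library, and within the antibody group replicate 3 stood well above the others. Air+IgG replicate 2, 1 of the libraries rich in Lars2, was the highest library for both Jun and Junb.

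Fos, the prototype immediate-early gene (chr12:85473890-85477273, +), had 17.1, 10.4 and 8.12 CPM in CIE+IL17 Ab, 10.3, 17.3 and 16.5 CPM in CIE+IgG, and 15.9, 19.9 and 20.2 CPM in Air+IgG. All 3 groups overlapped, and the antibody library with the most Fos, replicate 1, had the least Fosl2 and Jun. Fosb (chr7:19302696-19310051, -) had 2.36, 1.41 and 2.11 CPM in CIE+IL17 Ab, 2.58, 3.75 and 3.45 CPM in CIE+IgG, and 3.03, 3.50 and 4.64 CPM in Air+IgG. The antibody libraries were the lowest for Fosb, on only 17 to 20 counts each, against 24 to 37 in CIE+IgG and 26 to 49 in Air+IgG.

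Jund (chr8:70698949-70700616, +) had 39.7, 40.2 and 46.7 CPM in CIE+IL17 Ab, 43.0, 41.2 and 37.7 CPM in CIE+IgG, and 52.2, 45.1 and 45.5 CPM in Air+IgG. CIE+IL17 Ab overlapped both other groups, while each CIE+IgG library lay under each Air+IgG library. The pooled SD of log2 CPM within groups was 0.116 for Jund, under the median of 0.144 for genes of like mean level. It was 0.363 for Fosl2, 0.404 for Fos, 0.423 for Jun and 0.516 for Junb, above the medians of 0.161, 0.197, 0.147 and 0.159 for genes of their mean levels, and 0.306 for Fosb, under its median of 0.385. The range of log2 CPM over the 9 libraries was 2.93 for Fosl2, 2.69 for Junb and 2.23 for Jun, against 1.58 for Fosb, 1.29 for Fos and 0.47 for Jund. Genes on the opposite strand overlap Jun (Junos), Junb (Prdx2) and Jund (Gm11175). The libraries were stranded, and whether counting used the strand was not given in the sources used here.

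The first comparison asked how ethanol exposure related to AP-1 transcripts in mice given IgG. The fold changes of all 6 subunits were below 0 in CIE+IgG against Air+IgG, as were those of 52% of all genes, and 0 of 6 subunits were called, with 0% of 14696 genes called (edgeR). Before adjustment 406 genes had a p under 0.05 in edgeR, and after adjustment DESeq2 called 6 and limma-voom 0. The log2 fold changes were -0.36 ± 0.29 for Jun, -0.35 ± 0.36 for Junb, -0.34 ± 0.28 for Fos, -0.20 ± 0.28 for Fosb and -0.08 ± 0.24 for Fosl2 (SE). These 5 genes had overlapping groups.

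Jund averaged 40.6 ± 2.70 CPM in CIE+IgG, against 47.6 ± 4.03 CPM in Air+IgG (SD, n = 3 each), a log2 fold change of -0.23 ± 0.10 (SE). It was the 1 subunit whose groups did not overlap, as was the case in the lower direction for 4.8% of all genes. Its unadjusted p was 0.0522 and its adjusted p 0.9997 (edgeR), so the difference did not pass. The sign for Fosl2 turned to 0.13 without CIE+IgG replicate 3 and to 0.20 in the libraries numbered 54 to 60.

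The second comparison asked how the antibody against interleukin 17A related to AP-1 transcripts in ethanol-exposed mice. Fosl2 fell to 9.74 ± 2.79 CPM in CIE+IL17 Ab, against 43.1 ± 13.1 CPM in CIE+IgG (SD, n = 3 each), and was 4.38-fold lower. Its log2 fold change was -2.13 ± 0.26 (SE) with an adjusted p of 0.0178 (edgeR). It was the 1 of 6 subunits called, where 3.18% of 14696 genes were called and 1.41% were called lower. In the same libraries, summed CA1 markers averaged 138 ± 53.0 CPM in CIE+IL17 Ab and 435 ± 120.2 CPM in CIE+IgG, and summed thalamus and habenula markers 925 ± 264 CPM in CIE+IL17 Ab and 144 ± 60.6 CPM in CIE+IgG.

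Junb averaged 14.6 ± 8.51 CPM in CIE+IL17 Ab and 36.4 ± 7.54 CPM in CIE+IgG, with a log2 fold change of -1.32 ± 0.37 (SE) and an adjusted p of 0.0883 (edgeR). Jun averaged 24.8 ± 10.1 CPM in CIE+IL17 Ab and 46.2 ± 7.84 CPM in CIE+IgG, with a log2 fold change of -0.89 ± 0.30 (SE) and an adjusted p of 0.133 (edgeR). Fosb had a log2 fold change of -0.75 ± 0.30 (SE, adjusted p = 0.177, edgeR). These 3 genes and Fosl2 had antibody libraries below all CIE+IgG libraries, so 4 of 6 subunits did not overlap, like 13.2% of all genes in the lower direction. Fos, at -0.32 ± 0.29 (SE, adjusted p = 0.559, edgeR), and Jund, at 0.06 ± 0.10 (SE, adjusted p = 0.801, edgeR), had overlapping groups. Of the 6 fold changes 5 were below 0, beside 47.8% for all genes, and their median was -0.82 on the log2 scale, beside 0.01 for all genes.

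The log2 fold change of Fosl2 against CIE+IgG lay between -2.36 and -1.91 under all 19 alternatives, but its call held in 11 of them. The adjusted p was 0.0516 without Air+IgG replicate 1 and also without Air+IgG replicate 3, 0.0945 without CIE+IL17 Ab replicate 2, and 0.106 or 0.0564 when CIE+IgG replicate 1 or 2 was left out. It was 0.0896 with only these groups in the fit, 0.0882 with replicate number as a block and 0.124 in the libraries numbered 54 to 60. Within label numbers 37 to 39, the Fosl2 difference of log2 CPM was -1.61 with 1 library a group, and within 54 to 60 it was -2.36 with 2 libraries a group. The same differences were -1.86 and -1.23 for Junb and -0.75 and -1.05 for Jun. Without CIE+IL17 Ab replicate 3, the antibody library with the highest Fosl2, Jun and Junb, Jun was called at -1.26 (adjusted p = 0.0257) and Junb at -1.93 (adjusted p = 0.00575, edgeR).

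**Figure D2:**
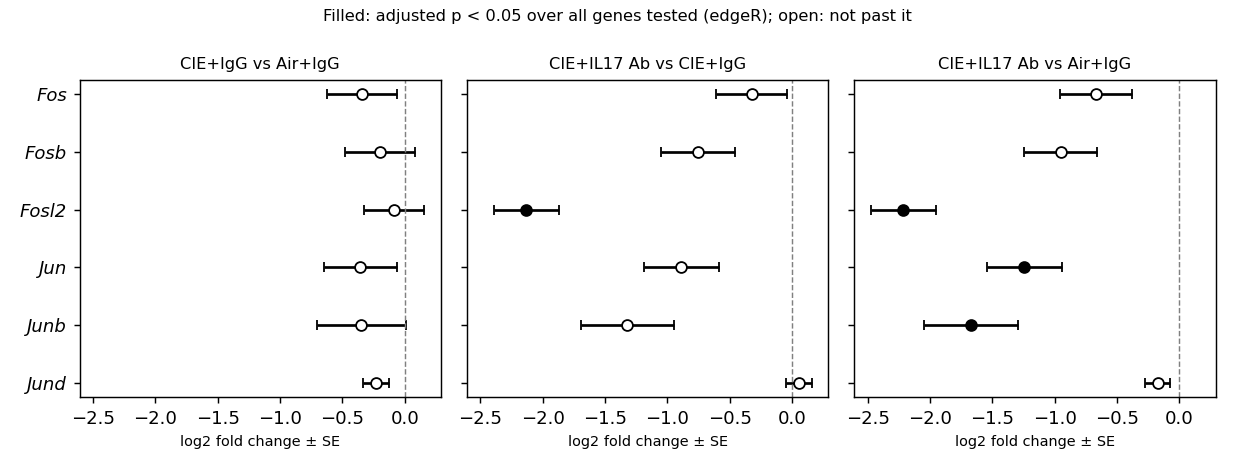
Log2 fold changes (first group over second, edgeR) with standard errors for the 6 subunits in the 3 comparisons. Filled points have an adjusted p under 0.05 over 14696 genes. Fosl2 was filled in both comparisons of CIE+IL17 Ab, at -2.13 and -2.21, Jun and Junb in that with Air+IgG, and no point was filled between CIE+IgG and Air+IgG.

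The third comparison set CIE+IL17 Ab against Air+IgG. It shares its antibody libraries with the second comparison and its air libraries with the first, so the values are given side by side and count as no independent evidence. Fosl2, Junb and Jun fell, so 3 of 6 subunits were called, where 13.5% of all genes were called and 6.71% were called lower. Fosl2 averaged 9.74 ± 2.79 CPM in CIE+IL17 Ab and 45.5 ± 3.80 CPM in Air+IgG (SD, n = 3 each), and was 4.64-fold lower with a log2 fold change of -2.21 ± 0.26 (SE) and an adjusted p of 0.00985 (edgeR).

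Junb averaged 14.6 ± 8.51 CPM in CIE+IL17 Ab and 46.4 ± 12.1 CPM in Air+IgG, a log2 fold change of -1.67 ± 0.37 (SE, adjusted p = 0.0272, edgeR). Jun averaged 24.8 ± 10.1 CPM in CIE+IL17 Ab and 59.1 ± 16.4 CPM in Air+IgG, a log2 fold change of -1.24 ± 0.30 (SE, adjusted p = 0.0334, edgeR). Both were lower in each antibody library than in each air library. Fosb at -0.95 ± 0.29 (SE, adjusted p = 0.0638, edgeR) also had groups that did not overlap, and it was called when genes with CPM of 1 or less in any library were dropped (adjusted p = 0.0454). In all, 4 of 6 subunits did not overlap, as against 18.1% of all genes in the lower direction. Fos at -0.67 ± 0.29 (SE, adjusted p = 0.146) and Jund at -0.17 ± 0.10 (SE, adjusted p = 0.286, edgeR) had overlapping groups. Fold changes of 6 of 6 were below 0, beside 48.4% for all genes, and their median was -1.10 on the log2 scale, beside 0.01 for all genes.

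Against Air+IgG, Fosl2 was called in 17 of 19 alternatives, with log2 fold changes of -2.45 to -2.05. The exceptions were the fit without Air+IgG replicate 3 (adjusted p = 0.0537) and the libraries numbered 54 to 60 (adjusted p = 0.103). Junb was called in 10 of 19 and Jun in 9 of 19, and their log2 fold changes stayed between -2.27 and -1.26 and between -1.61 and -0.79. Jun lost its call without Air+IgG replicates 1 (0.0568), 2 (0.09998) or 3 (0.0750), without CIE+IL17 Ab replicates 1 (0.0538) or 2 (0.121), and when CIE+IgG replicate 1 was left out (0.0541, adjusted p-values). Junb lost its call without Air+IgG replicates 1 (0.0563), 2 (0.0864) or 3 (0.0668) and without CIE+IL17 Ab replicates 1 (0.0525) or 2 (0.0953). Both also lost it with replicate number as a block (adjusted p = 0.0548 for Junb and 0.0706 for Jun), with only these groups in the fit (0.0557 and 0.0643) and in the libraries numbered 54 to 60 (0.204 and 0.223, edgeR). Without CIE+IL17 Ab replicate 1, the antibody library with the most Fos, Fos was called at -1.002 (adjusted p = 0.0324, edgeR). Without both Lars2-rich libraries, Junb was at -1.26 (adjusted p = 0.112) and Jun at -0.79 (adjusted p = 0.0951). Within label numbers 37 to 39 and 54 to 60, the differences of log2 CPM were -2.37 and -2.17 for Fosl2, -2.17 and -1.57 for Junb and -1.28 and -1.29 for Jun.

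The make-up of the AP-1 transcript pool, as shares of the summed CPM per kb of exon, was dominated by Jund in the antibody group. Jund held 55.8 ± 4.35% of the pool in CIE+IL17 Ab, 37.1 ± 3.12% in CIE+IgG and 35.9 ± 6.41% in Air+IgG (SD, n = 3 each). Per library, its share was 57.1, 59.3 and 50.9% in CIE+IL17 Ab, 39.8, 33.7 and 37.9% in CIE+IgG, and 42.5, 29.7 and 35.4% in Air+IgG. The antibody libraries lay above all others.

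The shares of Junb and Fosl2 ran the other way. Junb held 13.2 ± 5.25% in CIE+IL17 Ab, 23.9 ± 3.11% in CIE+IgG and 24.8 ± 3.56% in Air+IgG. Fosl2 held 2.18 ± 0.369% in CIE+IL17 Ab, 6.66 ± 1.41% in CIE+IgG and 5.91 ± 0.954% in Air+IgG. For each of these 3 shares, the antibody group differed from either IgG group at an exact permutation p of 0.1 (two-sided), the smallest that 3 against 3 allows, and 0.233 when adjusted over the 21 tests of shares and sums. A p under 0.05 was out of reach for this design.

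Jun held 16.6 ± 4.14% of the pool in CIE+IL17 Ab, 22.0 ± 2.91% in CIE+IgG and 22.8 ± 3.65% in Air+IgG, with overlap between groups (exact permutation p = 0.2 against either, two-sided). Fos held 11.5 ± 5.59% in CIE+IL17 Ab, 9.53 ± 2.55% in CIE+IgG and 9.89 ± 1.10% in Air+IgG. The Fos share was 17.4% in antibody replicate 1, second in that library after Jund, and 6.28% in antibody replicate 3. The summed level was 45.8 ± 7.99 CPM per kb in CIE+IL17 Ab, 65.9 ± 6.97 CPM per kb in CIE+IgG and 80.5 ± 9.15 CPM per kb in Air+IgG (exact permutation p = 0.1 for each pair, two-sided). Per kilobase of the union of exons no group overlapped another, but CIE+IgG replicate 2 (73.35) came close to Air+IgG replicate 1 (73.63 CPM per kb). With the longest transcript as gene length, CIE+IgG replicate 2 lay above Air+IgG replicate 1, so these groups overlapped.

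**Figure D3:**
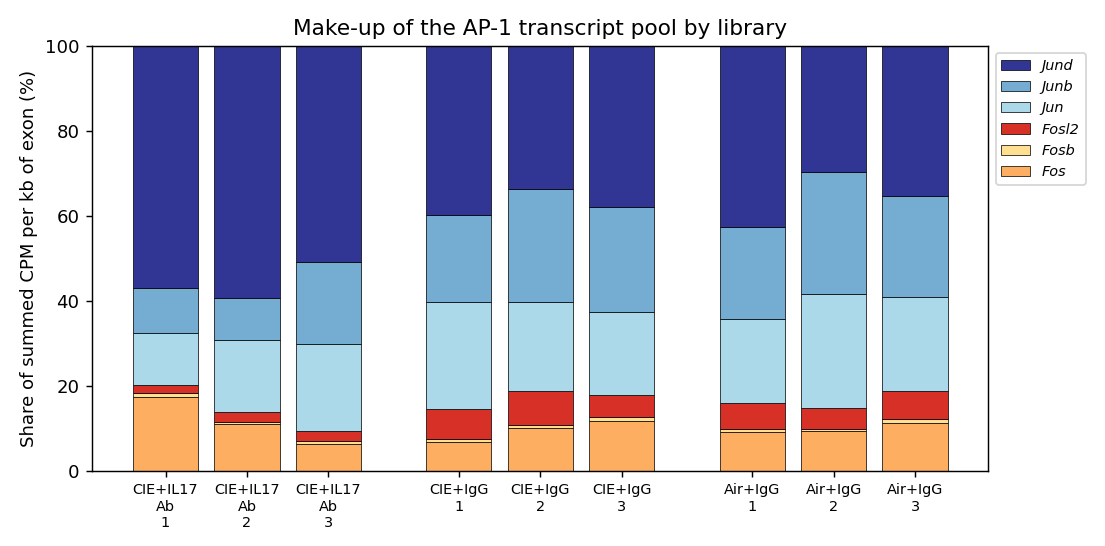
Share of each subunit in the summed CPM per kb of exon (percent, stacked to 100) in each library, with CIE+IL17 Ab, CIE+IgG and Air+IgG from left to right. Jund filled 50.9 to 59.3% of the bar in CIE+IL17 Ab, 33.7 to 39.8% in CIE+IgG and 29.7 to 42.5% in Air+IgG.

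Other regulators around AP-1 were read from the same fit, and their lists were chosen with earlier results of these data known. The partner bZIP factors, which pair with AP-1 subunits or bind related sites, had 11 tested genes and 0 calls in each comparison. Over all genes, 3.18% were called in CIE+IL17 Ab against CIE+IgG and 13.5% against Air+IgG. Their median log2 fold change was 0.0080 for CIE+IL17 Ab against CIE+IgG and -0.03 against Air+IgG. Bach1, a repressor that pairs with small Maf proteins, had the smallest p of these in both, at 0.32 (adjusted p = 0.181) and 0.36 (adjusted p = 0.0957, edgeR). Between CIE+IgG and Air+IgG, the 2 smallest p were those of Atf4 at -0.12 and Mafg at 0.08.

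Of 24 tested kinases and factors upstream of AP-1, 3 were called lower and 0 higher in CIE+IL17 Ab against CIE+IgG, with a median of -0.17. Of all genes, 1.41% were called lower and 3.18% in either direction in this comparison. Map2k1, the MAP kinase kinase MEK1, was at -0.61 ± 0.14 (SE, adjusted p = 0.0493) and Mapk14, the stress kinase p38α, at -0.47 ± 0.10 (SE, adjusted p = 0.0470, edgeR). The call held in 7 of 19 alternatives for Map2k1 and 8 of 19 for Mapk14.

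Against Air+IgG, 5 of these 24 genes were called lower and 1 higher, where 6.71% of all genes were called lower and 13.5% in either direction. Map2k1 and Mapk14 fell by 0.75 and 0.49 on the log2 scale. Srf, the factor that binds CArG boxes, fell by 0.90 (adjusted p = 0.0316), and Mef2c, a neuronal MADS-box factor, fell by 1.14 (adjusted p = 0.0477, edgeR). Rps6ka1, a ribosomal S6 kinase, rose to 22.3 ± 1.73 CPM in CIE+IL17 Ab, against 15.3 ± 1.07 CPM in Air+IgG (adjusted p = 0.0187, edgeR). The calls held in 9 of 19 alternatives for Srf, 8 for Mef2c and 13 for Rps6ka1. Between CIE+IgG and Air+IgG 0 of 24 were called, and the 2 smallest p were those of Rps6ka2 at 0.15 and Rps6ka5 at 0.23.

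The other activity-induced transcription factors had a median log2 fold change of -0.88 in CIE+IL17 Ab against CIE+IgG and of -0.90 against Air+IgG. Of 16 tested, 2 were called lower against CIE+IgG and 7 against Air+IgG, with 0 higher in either. Over all genes, 1.41% and 6.71% were called lower in these comparisons. Fold changes were below 0 for 10 of 16 against CIE+IgG and for 12 of 16 against Air+IgG. Npas4, Ier2, Klf2, Klf4, Klf6 and Maff were above 0 against CIE+IgG. Klf10, a TGF-β-inducible zinc finger factor, averaged 10.2 ± 3.69 CPM in CIE+IL17 Ab, 31.8 ± 0.560 CPM in CIE+IgG, against 38.1 ± 6.05 CPM in Air+IgG (SD, n = 3 each). Its log2 fold change was -1.64 ± 0.22 (SE, adjusted p = 0.0212) against CIE+IgG and -1.90 ± 0.22 (SE, adjusted p = 0.00985, edgeR) against Air+IgG.

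Nr4a1, an orphan nuclear receptor induced by activity, averaged 13.5 ± 3.52 CPM in CIE+IL17 Ab, 38.03 ± 13.6 CPM in CIE+IgG, against 45.7 ± 11.6 CPM in Air+IgG. Its values gave log2 fold changes of -1.50 (adjusted p = 0.0465) and -1.76 (adjusted p = 0.0155, edgeR). Against CIE+IgG, the calls of Klf10 and Nr4a1 held in 11 and 7 of 19 alternatives, and against Air+IgG in 17 and 14. The other 5 called lower against Air+IgG were Nr4a3 at -2.29, Egr2 at -1.20, Ier5 at -0.99, Btg2 at -0.91 and Egr1 at -0.90. Their calls held in 9 to 13 of 19 alternatives. Egr1 and Egr2 are zinc finger immediate-early factors, and Nr4a3 is a relative of Nr4a1. Between CIE+IgG and Air+IgG 0 of 16 were called and 13 were below 0, with Npas4 at -0.51 and Ier2 at -0.75 holding the smallest p.

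**Figure D4:**
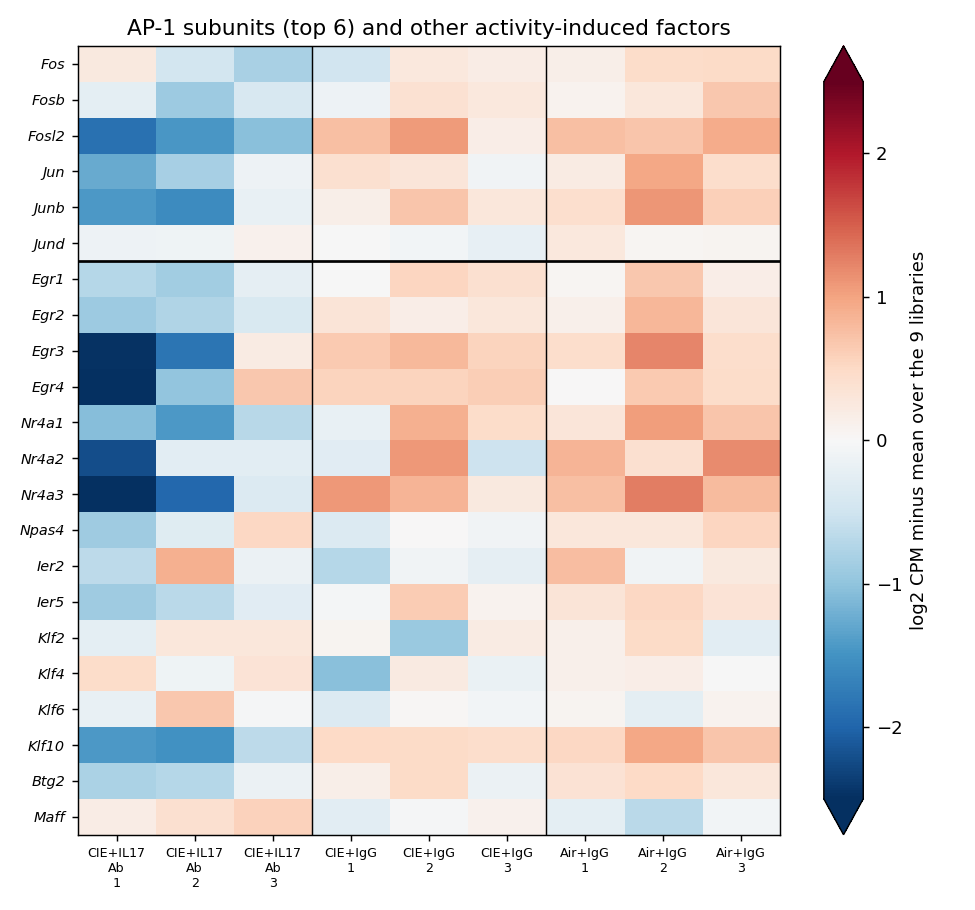
Log2 CPM of the 6 AP-1 subunits (above the line) and 16 other activity-induced factors in each library, minus each gene's mean over the 9 libraries, with colours saturated beyond ±2.5. Libraries run CIE+IL17 Ab, CIE+IgG and Air+IgG from left to right. Klf10, Nr4a1 and Nr4a3 were low in all 3 CIE+IL17 Ab libraries alongside Fosl2, whereas Jund was close to 0 throughout.

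Of 18 tested genes reported as AP-1 targets, 1 was called lower and 2 higher in CIE+IL17 Ab against Air+IgG, a share near the 13.5% of all genes called in that comparison. Of the same 18, 1 was called lower in CIE+IL17 Ab against CIE+IgG, where Ccnd1, which encodes cyclin D1, averaged 27.7 ± 2.36 CPM in CIE+IL17 Ab and 40.3 ± 5.55 CPM in CIE+IgG (adjusted p = 0.0494, edgeR). The median of the 18 was -0.21. Against Air+IgG their median was -0.0031. Bdnf, a neurotrophin, averaged 18.5 ± 4.23 CPM in CIE+IL17 Ab and 49.7 ± 17.8 CPM in Air+IgG (adjusted p = 0.0345). Nptx2, a secreted synaptic pentraxin, averaged 28.4 ± 6.84 CPM in CIE+IL17 Ab and 16.7 ± 4.44 CPM in Air+IgG (adjusted p = 0.0483). Th, the rate-limiting enzyme of catecholamine synthesis, averaged 3.53 ± 2.34 CPM in CIE+IL17 Ab and 0.559 ± 0.257 CPM in Air+IgG (adjusted p = 0.0433, edgeR). The calls held in 6 of 19 alternatives for Ccnd1, 10 of 19 for Bdnf, 7 of 19 for Nptx2 and 5 of 18 for Th. Between CIE+IgG and Air+IgG 0 of 18 were called, and the smallest p were those of Cd44 at -0.70 and Penk at 1.65. Penk turned to -0.36 without CIE+IgG replicate 3, the library with the most transcript from striatal markers (622 CPM summed, against 80.7 and 90.4 CPM in the other CIE+IgG libraries).

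Genes whose pattern over the 9 libraries was most like that of a subunit were found by the mean absolute difference of log2 CPM, each gene centred on its own mean, among 12052 (12053 for Fosb) genes of at least 5 CPM on average. For Fosl2 these were Psrc1 (0.182), Cpne6 (0.217), Ak5 (0.222), Dkk3 (0.225) and Chrd (0.227). Cpne6 is a calcium-binding copine of excitatory neurons, and it averaged 82.0 CPM in CIE+IL17 Ab, 284 CPM in CIE+IgG, against 315 CPM in Air+IgG. For Junb they were Chn1 (0.136), Ano3 (0.137), Plk2 (0.139), Ppp3ca (0.142) and Dlgap2 (0.155). Plk2 is an activity-regulated kinase and Ppp3ca the catalytic subunit of calcineurin. For Jun they were Erc2 (0.0880), Nfib (0.0905), Scn3b (0.0973), Ppfia2 (0.0988) and Zfp189 (0.101), of which Erc2 and Ppfia2 encode proteins of the presynaptic active zone.

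The genes nearest to Fosb were Dio2 (0.141), A830018L16Rik (0.147), Camk1g (0.158), Jcad (0.165) and Etv5 (0.166), and those nearest to Fos were Fam205a1 (0.166), Zdhhc2 (0.168), Pex5l (0.190), Trappc2l (0.194) and Carnmt1 (0.201). Jund varied too little for this measure. Within the family, Fos was nearest to Fosb (0.257) and Jun to Junb (0.273), whereas Fosl2 and Jund were farthest apart (0.940). All these likenesses are over the same 9 libraries, whose depth and tissue make-up all genes share.

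Summed markers of CA1 pyramidal neurons were lower, and those of thalamus and habenula higher, in CIE+IL17 Ab than in either IgG group. For all marker counts, the shares over all genes were 3.18% called in either direction against CIE+IgG and 13.5% against Air+IgG. The markers were chosen with earlier results of these data known, so their counts beside these shares are no independent test. Of 7 tested markers of CA1 pyramidal neurons, 4 were called lower in CIE+IL17 Ab against CIE+IgG and 5 against Air+IgG. Summed, they lay between 101 and 199 CPM in CIE+IL17 Ab, between 325 and 563 CPM in CIE+IgG, and between 533 and 622 CPM in Air+IgG. Of 10 tested markers of thalamus and habenula, 9 were called higher against CIE+IgG and 10 against Air+IgG. Markers of dentate granule cells summed to 95.5, 264 and 421 CPM in CIE+IL17 Ab, 524, 655 and 306 CPM in CIE+IgG, and 439, 1003 and 412 CPM in Air+IgG, with 0 of 8 called in either. Dentate markers, like Jun, Junb, Fosl2 and Jund, were highest among the antibody libraries in replicate 3. The same held for the summed markers of CA1, of CA2 and CA3, and of striatal neurons. In that library Fos was the lowest of the antibody group (8.12 CPM), and Fosb lay between the others. Like Jun and Junb, dentate markers were highest of all in Air+IgG replicate 2, as were those of microglia and meningeal fibroblasts. Fosl2 and Jund were there the lowest of the air libraries, at 42.6 and 45.1 CPM.

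Of 6 markers of CA2 and CA3 neurons, 1 was called lower in CIE+IL17 Ab against CIE+IgG, and 2 lower and 1 higher against Air+IgG. Of 8 oligodendrocyte markers, 0 were called against CIE+IgG and 6 were called higher against Air+IgG, with sums of 6007 to 7317 CPM in CIE+IL17 Ab, 4476 to 7111 CPM in CIE+IgG, against 3924 to 4477 CPM in Air+IgG. General neuronal markers summed to 4058 to 4664 CPM in CIE+IL17 Ab, 4905 to 5410 CPM in CIE+IgG, against 5179 to 5875 CPM in Air+IgG. Microglial markers had 2 of 7 called lower against CIE+IgG and 3 of 7 against Air+IgG. Of 6 astrocyte markers, 1 was called higher against CIE+IgG and 0 against Air+IgG. Meningeal fibroblast markers had 0 and 3 of 6 called lower and general neuronal markers 0 and 1 of 5, while markers of striatal neurons, choroid plexus and endothelium had 0 calls in either. Between CIE+IgG and Air+IgG, 0 markers of any list were called. No marker was at 0 in every library of a group. The part of these cell types in the AP-1 differences was not tested, and in bulk tissue fewer cells of a type and less RNA per cell cannot be told apart.

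**Figure D5:**
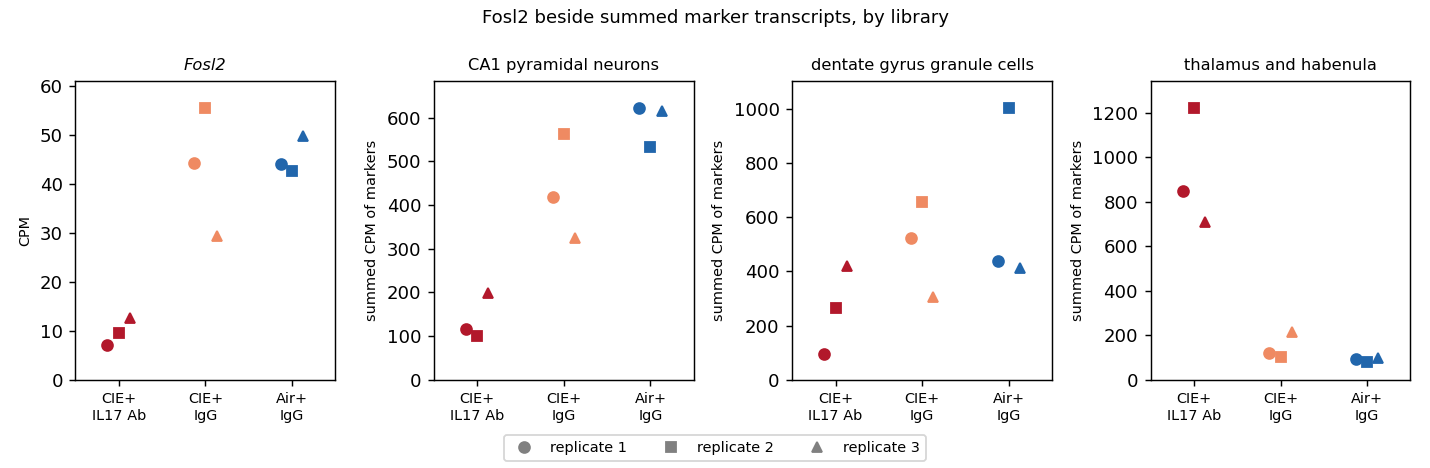
Fosl2 (CPM) beside the summed CPM of markers of CA1 pyramidal neurons, dentate gyrus granule cells, and thalamus and habenula in each library (linear axes from 0; symbols mark replicates), with CIE+IL17 Ab, CIE+IgG and Air+IgG from left to right. CIE+IL17 Ab libraries were lowest for Fosl2 and CA1 markers and highest for thalamus and habenula markers, at 710 to 1220 CPM.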

How the data were processed

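Polyadenylated RNA of mouse hippocampus was sequenced in 9 libraries, 3 per group, from stranded libraries per the labels' protocols. Expected counts per gene, as RSEM estimates them, were made by the authors and deposited in 1 table with no scaling, per the file's values and the submitters' processing notes. Those notes name STAR 2.5.1a, RSEM 1.3.0 and GRCm38, and which annotation and filters were used was not given in the sources used here. Expected counts split reads between genes that share sequence, and 15 of 54 values of the AP-1 subunits, all of Jun or Jund, had decimals.

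Symbols and coordinates came from GENCODE M21 (GRCm38), which matched 14628 identifiers. Counts were rounded and filtered with edgeR's filterByExpr (minimum count 10, by group). Libraries were scaled by TMM and all 9 were fitted together by group (edgeR 4.0.16 in R 4.3.3, robust quasi-likelihood, 6 residual df). Benjamini-Hochberg adjustment ran over all genes tested in a comparison. The p-values of edgeR weigh a group difference against the spread between libraries within groups. That spread was estimated jointly from all 9 libraries, with 3 per group, and with information shared across genes. The labels do not say beyond the design text that each library is 1 mouse. Log2 CPM used a prior count of 2. Shares used CPM per kilobase of the union of exons, with exact permutation tests over libraries.

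The members, lists and markers were chosen with earlier results of these data known. Named were the 6 subunits, list genes called in a comparison or else the 2 of smallest p, and 5 genes of like pattern for each subunit that ranged over more than 1 on the log2 scale. Alternatives were limma-voom (limma 3.58.1), DESeq2 1.42.0, edgeR with DESeq2's size factors, keeping all genes, keeping genes with CPM above 1 in every library, a fit of the compared groups only, replicate number as a block, label number as a term or restricted to 54 to 60, leaving out 2 Lars2-rich libraries, leaving out each library, and the longest transcript as gene length. The list genes Atf7, Batf, Batf2, Batf3, Mkl1, Mkl2, Mmp3 and Plaur and the markers Gbx2 and Nov were not analysed here, and Atf3 did not pass the filter. The values of 1 called gene of the upstream list are not reported here.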

Additional observations from a re-analysis of the deposited data

How the results depend on the processing

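The count of genes called for CIE+IgG against Air+IgG was 0 and became 6 with DESeq2. For CIE+IL17 Ab against CIE+IgG, 468 genes and 1 AP-1 subunit were called. These were 1481 genes and 3 subunits with DESeq2, 1 and 0 with only the compared groups in the fit, 776 genes with label number as a term, and 1 and 0 in the libraries numbered 54 to 60. Leaving out 1 library gave 0 to 1313 genes and 0 to 3 subunits. Without CIE+IL17 Ab replicate 2 or 3, 19 or 1313 genes were called. Leaving out CIE+IgG replicate 1, 2 or 3 gave 0, 7 or 715, and leaving out Air+IgG replicate 1, 2 or 3 gave 22, 223 or 18.

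For CIE+IL17 Ab against Air+IgG, 1990 genes and 3 subunits were called. These were 1192 and 1 with only the compared groups, 2 and 0 in the libraries numbered 54 to 60, and 1067 and 1 without the 2 Lars2-rich libraries. Leaving out 1 library gave 0 to 2305 genes and 0 to 3 subunits. Without CIE+IL17 Ab replicate 2, 218 genes were called, and leaving out CIE+IgG replicate 1 gave 1122. Leaving out Air+IgG replicate 1, 2 or 3 gave 478, 336 or 0. The cause of these shifts was not tested. Where libraries were left out the fit also held fewer of them, and the calls rose in some cases and fell in others.

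Deviations from group means correlated between -0.27 and 0.249 over 9 pairs of same-numbered libraries, against -0.253 to 0.279 for other numbers. These ranges overlapped and showed no pairing by replicate number, but deviations from means of 3 libraries cannot exclude one. With the replicate block, 14 genes and 0 subunits were called against CIE+IgG, and 571 genes and 1 subunit against Air+IgG.

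Of 342 subunit values under the alternatives, 302 kept direction and side of the threshold, 29 lost a call, 6 gained one and 5 changed sign. Between CIE+IgG and Air+IgG, the sign changed for Fosb without Air+IgG replicate 3 (0.00011), for Fosl2 in libraries 54 to 60 (0.20) and without CIE+IgG replicate 3 (0.13), for Atf4 in libraries 54 to 60 (0.0053), and for Penk in libraries 54 to 60 (-0.27) and without CIE+IgG replicate 3 (-0.36). Leaving out 1 library gave -0.32 to 0.00011 for Fosb, -0.31 to 0.13 for Fosl2 and -0.36 to 2.11 for Penk. Between CIE+IL17 Ab and CIE+IgG the sign of Jund changed when replicate 3 of CIE+IL17 Ab (-0.027) or of CIE+IgG (-0.0018) was left out, within a range of -0.027 to 0.10. With the longest transcript as gene length, the shares in CIE+IL17 Ab, CIE+IgG and Air+IgG were 1.07, 1.18 and 1.11% for Fosb and 3.03, 8.86 and 7.87% for Fosl2. In CIE+IgG they were then 27.3% for Junb and 33.4% for Jund, and Jund led in 7 of 9 libraries. Fosb rested on the fewest counts of the 6 subunits, 17 to 49 per library, and how far depth limits its values was not tested.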
